A study of Mus musculus with 10 samples.

Results

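The BCL2 family genes Bcl2, Bcl2l1, Mcl1, Bcl2l11, Bax, Bak1, Bad, Bid, Bbc3 and Pmaip1 were compared between activated T cells of knockout and wild-type mice. These 10 genes were taken by symbol, of 19054 genes with values in both deposited tables, and included Bcl2l1, which has been reported as a target gene of the transcription factor KLF13. Values were found for 9 of the 10, through probe sets that name exactly 1 of them. Bax had 0 such probe sets in either table, so its expression was not analysed here. All 9 passed the filter on dim genes and were among the 12489 genes tested.

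The knockout samples (KO1 to KO5) came from KLF13 KO mice and the wild-type samples (WT1 to WT5) from WT mice, and the labels number the mice of each genotype 1 to 5. All were male Balb/C mice aged 12 weeks, and the knockout allele is not described in the sources used here. CD3+ T cells from the spleen were stimulated for 4 days with plate-coated antibody to CD3 and soluble antibody to CD28, and their RNA was hybridised to Affymetrix arrays. Replicates 1 to 3 of each genotype are in an exon-level table and replicates 4 and 5 in a gene-level table. In such bulk RNA, fewer cells of a type and less RNA per cell cannot be told apart.

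Proteins of the BCL2 family decide whether the outer membrane of the mitochondrion is opened, the step that commits a cell to the intrinsic path of apoptosis. The survival proteins BCL2, BCL-XL (the long product of Bcl2l1) and MCL1 hold the pore-forming effectors BAX and BAK in check. The BH3-only proteins BIM (Bcl2l11), BAD, BID, PUMA (Bbc3) and NOXA (Pmaip1) bind survival proteins, and some of them also activate the effectors directly. In T cells, BCL2 and MCL1 are known for keeping resting and activated cells alive, BCL-XL for its induction by CD28 costimulation, and BIM for the death of activated T cells when a response ends.

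Values are log2 RMA signals, in which a difference of 1 is a doubling of signal. The columns of the exon-level table lay on separate scales, with medians of 5.23 in KO1 and 5.21 in WT1 against 6.25 to 6.43 in the other 4 arrays. Differences are therefore given within replicate 1 (1 array per genotype, no test), replicates 2 and 3, and replicates 4 and 5. In replicates 2 and 3 the arrays themselves differed. KO3 correlated with KO2, WT2 and WT3 over the tested genes at 0.870 to 0.897, against 0.977 to 0.994 among the other pairs. The brightest 5% of genes had a median knockout minus wild-type difference of -0.71 there, against -0.15 in replicate 1 and -0.04 in replicates 4 and 5. Markers of T cells were present in each array, Cd3e reading 9.06 to 10.48 in the knockout arrays and 9.28 to 10.53 in the wild-type arrays. The transcript of the targeted gene, Klf13, had a knockout to wild-type ratio of 0.549 in a limma fit over all 10 arrays with the 3 sets as blocks (-0.86 ± 0.12 log2 units, SE of the fit, 5 arrays per genotype, adjusted p = 0.0126) and was lower in 5 of 5 knockout arrays. It passed without KO3 and in most other settings, but not without KO4, KO5, WT2, WT3 or WT4, each taken singly (adjusted p of 0.0507 to 0.0689).

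Bcl2l1 was the survival member with a lower value in each knockout array. Replicate 1 read 6.89 in KO1 and 7.26 in WT1. Bcl2l1 read 8.25 and 7.83 in KO2 and KO3, and 8.63 and 8.60 in WT2 and WT3. It read 7.14 and 7.31 in KO4 and KO5, and 7.53 and 7.75 in WT4 and WT5. Each knockout array thus lay below each wild-type array of its own set, and the groups did not overlap in any of the 3 sets. This order was shared by 10.8% of all genes tested, and the reverse order by 1.63% of all genes and 0 of the 9 members. The differences were -0.37 in replicate 1, -0.57 ± 0.25 in replicates 2 and 3 and -0.41 ± 0.14 in replicates 4 and 5 (SE, 2 arrays against 2 in the last 2 sets).

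Over all 10 arrays the Bcl2l1 signal had a knockout to wild-type ratio of 0.723 (-0.47 ± 0.12 log2 units, SE, 5 against 5, 95% interval -0.73 to -0.20). The difference did not pass after adjustment over all genes (limma, unadjusted p = 0.00256, adjusted p = 0.152). Within replicates 4 and 5 the adjusted p was 0.163, and within replicates 2 and 3 it was 0.473. Without KO3, the array that stood apart in correlation, the difference was -0.39 and passed (limma, adjusted p = 0.0331). In that fit 362 genes passed in place of 73. It kept KO2, whose 99th percentile of signal was 11.40, beside 11.57 in KO3, 12.23 in WT2 and 12.31 in WT3. Cycs, Pim1 and Bnip3, other genes of the pathway, likewise passed in that fit and not in the one with all arrays. Genes of similar brightness to Bcl2l1, between the 80th and 95th percentiles, had median differences of -0.03 in replicate 1, -0.50 in replicates 2 and 3 and -0.04 in replicates 4 and 5. Bcl2l1 was therefore close to genes of its brightness in replicates 2 and 3, and in the other sets it lay further below 0 than their median. After quantile normalization within each set the Bcl2l1 differences were -0.35, -0.32 and -0.38. That normalization put the median of all genes in replicates 2 and 3 at -0.06 in place of -0.22, and with quantile normalization and the median of probe sets together Bcl2l1 was at -0.11 in that set.

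**Figure D1:**
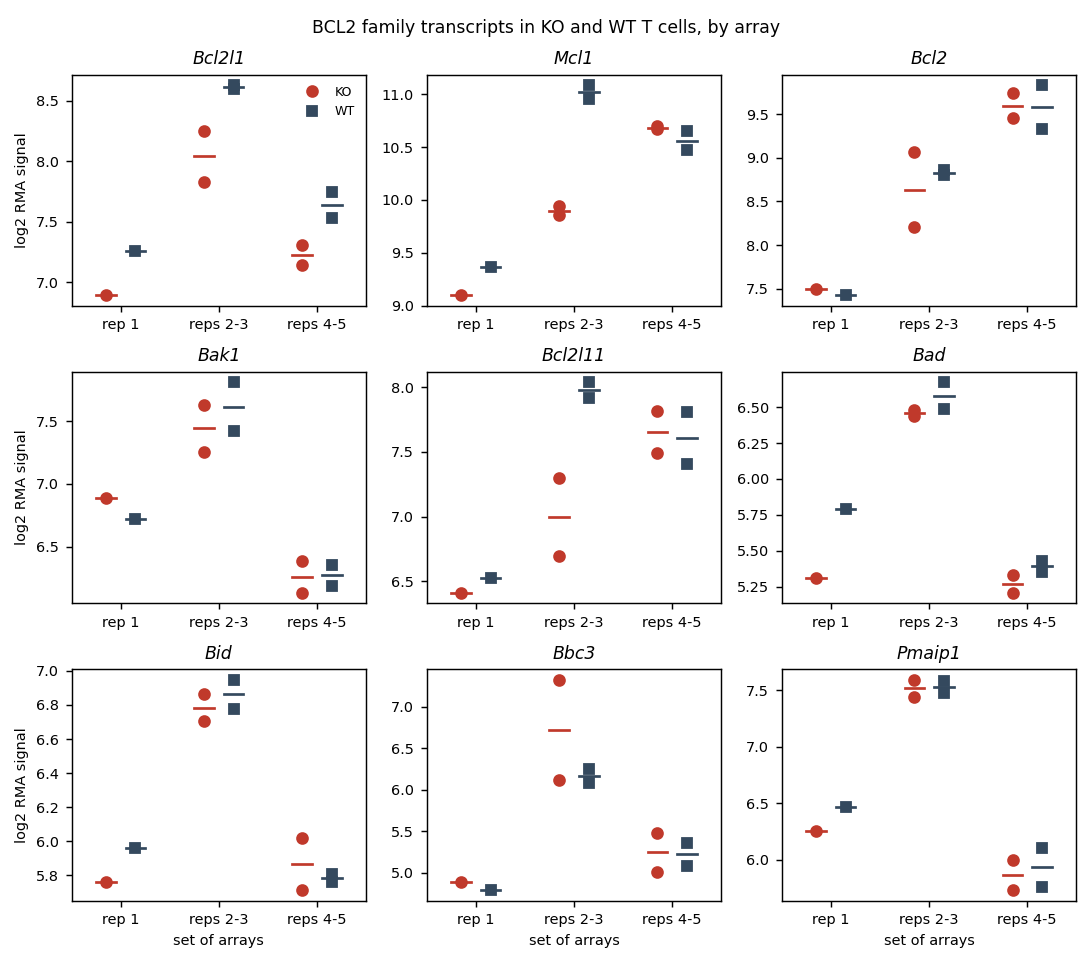
Log2 RMA signal of the 9 measured BCL2 family genes (vertical axes, separate for each gene) in each array, with knockout arrays as red circles left of wild-type arrays as dark squares, in the 3 sets of arrays; horizontal lines are means. The Bcl2l1 panel shows each knockout array below the wild-type arrays of its set, with 6.89 in KO1 and 7.26 in WT1, and with 7.14 and 7.31 in KO4 and KO5 and 7.53 and 7.75 in WT4 and WT5.

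The exon-level table measures Bcl2l1 with 17 probe sets, so the difference could be followed over single probe sets. Of these, 15 were lower in KO1 than in WT1 and 14 were lower in the knockout mean of replicates 2 and 3, with 12 lower in both. Of all genes tested, each taken as the mean of its probe sets, 53.5% were lower in replicate 1 and 65.1% in replicates 2 and 3. These are shares of genes. The shares of all exon-level probe sets were not counted, and probe sets of a gene share the same arrays. The 4 probe sets brightest in WT1 were 10488665, 10488663, 10488660 and 10488662, chosen after their values were seen. They differed by -0.49, -0.47, -0.54 and -0.54 in replicate 1, a narrow range. The same 4 differed in replicates 2 and 3 by -1.54, -1.34, -0.72 and -0.42, a wide one. Probe set 10488664, also chosen after its values were seen, went both ways, at 0.85 in replicate 1 and -2.16 in replicates 2 and 3, where KO3 read 4.39 beside 7.18 in WT2 and 7.91 in WT3. Of 16 Bcl2l1 probe sets that were bright enough to be tested, 0 passed in limma, and 3 were lower at an unadjusted p under 0.05. Among all 169103 probe sets tested 0% passed in either direction, and 3.65% were lower and 1.02% higher at an unadjusted p under 0.05.

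Bcl2l1 has 3 promoter windows in the RefSeq table of the GRCm38.p6 assembly, each of 300 bases from 250 before to 50 after an annotated start, on the minus strand of chromosome 2. They are shown because Bcl2l1 is the member reported as a KLF13 target, and KLF and SP factors are known to bind GC boxes and CACCC elements. Capitals mark matches to GGGCGG or CACCC on either strand.
Bcl2l1 window at chr2:152828440-152828739: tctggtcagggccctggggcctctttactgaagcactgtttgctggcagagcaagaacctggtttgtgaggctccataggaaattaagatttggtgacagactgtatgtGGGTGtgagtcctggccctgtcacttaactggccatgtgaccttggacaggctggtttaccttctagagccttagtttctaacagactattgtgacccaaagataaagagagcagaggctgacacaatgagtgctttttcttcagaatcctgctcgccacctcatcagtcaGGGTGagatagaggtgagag
Bcl2l1 window at chr2:152830668-152830967: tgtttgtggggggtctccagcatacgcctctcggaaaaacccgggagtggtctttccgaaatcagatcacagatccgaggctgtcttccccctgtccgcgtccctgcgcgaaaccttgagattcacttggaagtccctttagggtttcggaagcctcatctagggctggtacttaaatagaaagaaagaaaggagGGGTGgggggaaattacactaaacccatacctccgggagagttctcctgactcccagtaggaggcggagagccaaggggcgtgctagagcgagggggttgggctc
Bcl2l1 window at chr2:152831679-152831978: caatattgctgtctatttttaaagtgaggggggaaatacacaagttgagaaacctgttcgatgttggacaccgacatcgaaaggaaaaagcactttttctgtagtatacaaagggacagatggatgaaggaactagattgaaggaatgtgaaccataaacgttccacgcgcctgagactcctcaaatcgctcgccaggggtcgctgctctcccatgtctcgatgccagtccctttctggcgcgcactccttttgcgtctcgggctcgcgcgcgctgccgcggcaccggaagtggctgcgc
The first window holds 2 CACCC matches, the second holds 1 and the third holds 0, and none of the 3 holds GGGCGG. Of all 32851 windows of this length, 57.5% hold CACCC and 35.7% hold GGGCGG. Among the other members, GGGCGG had 7 matches in the window of Bcl2, 1 in that of Mcl1, 3 in that of Bid, 3 in each of 2 windows of Bcl2l11, 4 and 0 in those of Bad, and 5, 4 and 7 in those of Bbc3. The window of Bax holds 3, and that of Bak1 holds 0. CACCC had 0 matches for Bcl2, Mcl1 and Bak1, 1 for Bax, 2 for Bid, 3 and 0 for Bcl2l11, 1 and 2 for Bad, and 1, 3 and 4 for Bbc3. In 1 window of Bcl2l11, 1 match to each motif overlapped, and windows of Bbc3 overlap and share bases. Pmaip1 was not analysed here for promoter motifs. These are matches of letters in these windows only.

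Mcl1, whose short-lived protein is needed through T cell life, had knockout minus wild-type values of opposite sign in the 2 larger sets. It read 9.10 in KO1 and 9.36 in WT1. Mcl1 read 9.86 and 9.94 in KO2 and KO3, and 10.96 and 11.09 in WT2 and WT3. It read 10.67 and 10.70 in KO4 and KO5, and 10.66 and 10.47 in WT4 and WT5. The knockout arrays were thus below the wild-type arrays in the exon-level sets, with differences of -0.26 and -1.12, and slightly above them in the gene-level set, at 0.12. The difference between the last 2 sets was 1.25 (limma interaction, unadjusted p = 0.000597, adjusted p = 0.230), a test that 0% of genes passed and that had an unadjusted p under 0.05 for 11.2% of them and for 2 of the 9 members, Mcl1 and Bcl2l11. Over all arrays the Mcl1 ratio was 0.730 (-0.45 ± 0.20, SE, 5 against 5, adjusted p = 0.311). With replicates 2 and 3 left out, the fit gave -0.0062 ± 0.12, and after quantile normalization the difference in replicates 2 and 3 was -0.63 and the fit over all arrays gave -0.23. Mcl1 is among the brightest 5% of genes, whose median of -0.71 in replicates 2 and 3 lies on the same side, and 4 of its 5 exon-level probe sets were lower in both knockout arrays there than in both wild-type arrays. The share of all exon-level probe sets in that order was not counted. The brightest Mcl1 probe set, 10494309, read 11.20 and 10.99 in KO2 and KO3, and 13.16 and 13.42 in WT2 and WT3.

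Bcl2, the founding survival gene of the family, gave no shared direction. It read 7.50 in KO1 and 7.43 in WT1. Bcl2 read 9.06 and 8.20 in KO2 and KO3, and 8.86 and 8.81 in WT2 and WT3. It read 9.46 and 9.74 in KO4 and KO5, and 9.83 and 9.33 in WT4 and WT5. The groups overlapped in both larger sets, and the fit gave -0.06 ± 0.17 (SE, 5 against 5, 95% interval -0.44 to 0.32, adjusted p = 0.844). A single probe set read 14.96 in KO2, against 9.48 in KO3 and 10.82 and 10.92 in WT2 and WT3. Without it, an exception made after its values were seen, Bcl2 read 8.32 in KO2 and 8.04 in KO3, and 8.61 in WT2 and 8.54 in WT3. The difference in replicates 2 and 3 was then -0.39 in place of -0.20, and the fit gave -0.13 (adjusted p = 0.625). With the median of its probe sets within each array in place of their mean, Bcl2 differed by -0.17 in replicate 1 and -0.75 in replicates 2 and 3. The limma fit then gave -0.33 (unadjusted p = 0.105, adjusted p = 0.439). Such a median can fall on different probe sets in different arrays. The median of the differences of its 9 single probe sets was 0.14 in replicate 1 and -0.12 in replicates 2 and 3.

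**Figure D2:**
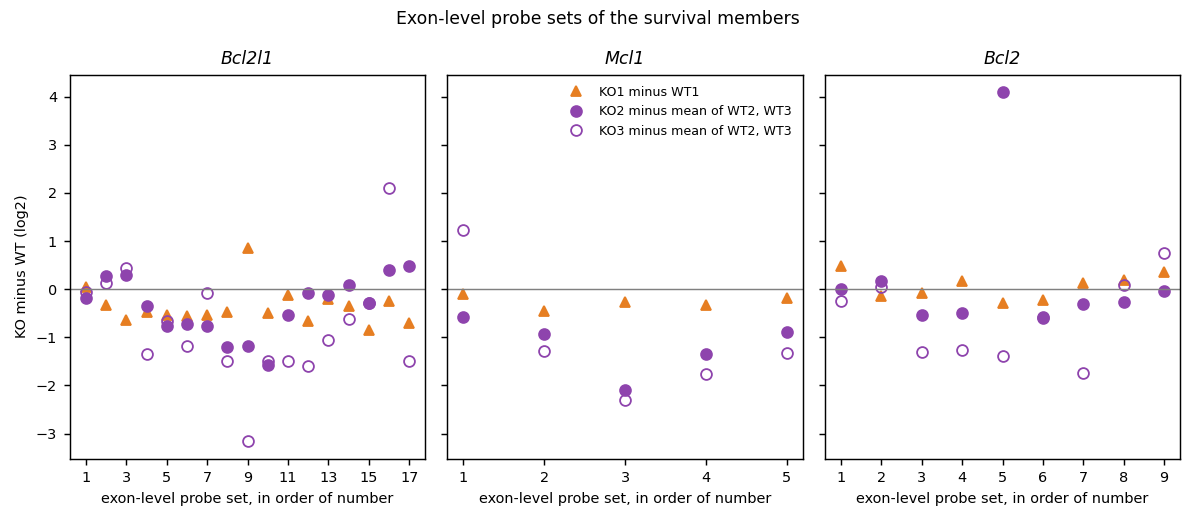
Knockout minus wild-type difference (vertical axis, log2) of each exon-level probe set of Bcl2l1, Mcl1 and Bcl2, in order of probe set number (horizontal axis). Orange triangles are KO1 minus WT1, filled purple circles KO2 and open circles KO3, each minus the mean of WT2 and WT3; most Bcl2l1 points lie below 0, and a single Bcl2 point of KO2 stands far above the rest.

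Of the death members, the effector gene Bak1 had an estimate near 0. It read 6.88 in KO1 and 6.72 in WT1. Bak1 read 7.63 and 7.26 in KO2 and KO3, and 7.81 and 7.42 in WT2 and WT3. It read 6.39 and 6.13 in KO4 and KO5, and 6.19 and 6.36 in WT4 and WT5. The fit gave -0.04 ± 0.13 (SE, 5 against 5, 95% interval -0.33 to 0.25, adjusted p = 0.859), and the groups overlapped in both larger sets.

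Among the BH3-only genes, Bcl2l11, which encodes BIM, followed the pattern of Mcl1. It read 6.41 in KO1 and 6.52 in WT1. Bcl2l11 read 7.30 and 6.69 in KO2 and KO3, and 7.92 and 8.04 in WT2 and WT3. It read 7.49 and 7.82 in KO4 and KO5, and 7.81 and 7.41 in WT4 and WT5, where the groups overlapped. The difference was -0.98 ± 0.29 in replicates 2 and 3 (SE, 2 against 2, adjusted p = 0.473), against 0.05 ± 0.17 in replicates 4 and 5 (adjusted p = 0.941), and the difference between these sets did not pass (limma interaction, adjusted p = 0.399). Both knockout arrays lay below both wild-type arrays of replicates 2 and 3 in 11 of its 12 exon-level probe sets. The share of all exon-level probe sets in that order was not counted, and probe sets of a gene share the same arrays. In that set 65.1% of all genes tested had a negative difference. Over all arrays the fit gave -0.40 ± 0.20 (adjusted p = 0.371), and -0.0067 with replicates 2 and 3 left out.

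Bad, whose protein is released to bind BCL-XL and BCL2 when survival signals fade, was the other member with each knockout array below each wild-type array of its set. It read 5.31 in KO1 and 5.79 in WT1. Bad read 6.48 and 6.44 in KO2 and KO3, and 6.67 and 6.49 in WT2 and WT3. It read 5.33 and 5.21 in KO4 and KO5, and 5.35 and 5.43 in WT4 and WT5. The gaps were small in the larger sets, and the fit gave -0.19 ± 0.11 (SE, 5 against 5, adjusted p = 0.421). The order in replicates 2 and 3 was that of the mean, and was found in 0 of the 4 exon-level probe sets of Bad. In replicate 1 these probe sets differed by -1.48 to 0.16. With the median of probe sets the fit gave -0.31 (adjusted p = 0.377). With Bcl2l1, 2 of the 9 members had this order, beside 10.8% of all genes.

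Bbc3, which encodes PUMA and is a known target of p53, had the one positive estimate. It read 4.88 in KO1 and 4.79 in WT1. Bbc3 read 6.12 and 7.32 in KO2 and KO3, and 6.25 and 6.08 in WT2 and WT3. It read 5.48 and 5.01 in KO4 and KO5, and 5.09 and 5.35 in WT4 and WT5. KO3 stood furthest above the wild-type mean of its set, at 1.16, against 0.26 in KO4 and 0.09 in KO1. KO2 and KO5 lay below theirs, at -0.05 and -0.21. Without KO3 the limma fit gave 0.02 in place of 0.25 ± 0.22 (SE, 5 against 5, adjusted p = 0.531). With the median of probe sets it gave 0.38 (adjusted p = 0.454). Replicate 1 was then at -0.15, and 3 of 5 exon-level probe sets of Bbc3 were lower in KO1 than in WT1.

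Bid, which links death receptors to the mitochondrion, differed by -0.20, -0.08 and 0.08 in the 3 sets, and the fit gave -0.04 ± 0.12 (95% interval -0.29 to 0.22, adjusted p = 0.850). Pmaip1, which encodes the MCL1 antagonist NOXA, differed by -0.21, -0.01 and -0.07, and the fit gave -0.08 ± 0.12 (95% interval -0.33 to 0.18, adjusted p = 0.722). With the median of probe sets the limma fits gave -0.09 for Bid and -0.20 for Pmaip1 (adjusted p of 0.722 and 0.509). Of 3 exon-level probe sets of Pmaip1, 2 were higher in the knockout both in replicate 1 and in replicates 2 and 3. The remaining one, 10456360, differed by -0.88 and -0.49. Bid read 5.71 to 6.86 in the knockout arrays and 5.76 to 6.95 in the wild-type arrays, while Pmaip1 read 5.73 to 7.59 in the knockout arrays and 5.76 to 7.58 in the wild-type arrays. These ranges span sets that lie on separate scales, so they do not compare the genotypes.

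Set side by side, the 3 survival members had a median difference of -0.45 over all arrays, and the 6 measured death members a median of -0.06, beside a median of -0.10 over all genes tested. The same medians in replicate 1 were -0.26 for survival members, -0.16 for death members and -0.02 for all genes. Replicates 2 and 3 had -0.57, -0.10 and -0.22. Replicates 4 and 5, where arrays of a genotype correlated at 0.991 to 0.993, had 0.02, 0.01 and -0.01, so that the medians of survival and death members were close. The median of 3 survival members is the value of a single gene, and of a different gene in each set. The difference between the survival and death members was not tested. After quantile normalization the medians over all arrays were -0.23 for survival members and 0.02 for death members. With the median of probe sets they were -0.40 and -0.15, and with both changes -0.20 and -0.07. The order in replicate 1 was then reversed, at -0.18 and -0.21 with the median of probe sets, and -0.14 and -0.22 with both. That reversal was found with medians taken within each array. The median differences of single probe sets in replicate 1 were -0.47 for Bcl2l1, -0.26 for Mcl1 and 0.14 for Bcl2. Among death members they were -0.29 for Bad, -0.24 for Bid, -0.11 for Bcl2l11, -0.06 for Bbc3, 0.09 for Pmaip1 and 0.11 for Bak1. With replicates 2 and 3 left out the medians were -0.0062 for survival members, the value of Mcl1, and -0.0095 for death members. Bcl2l1 was at -0.40 in that fit and Bcl2 at 0.03. Bcl2 and Bcl2l1 lay between the 80th and 95th percentiles of exon-level brightness and Mcl1 above the 95th, where all genes had medians of -0.50 and -0.71 in replicates 2 and 3. The 6 death members lay between the 50th and 80th percentiles, where that median was -0.21. The part of brightness in the difference between these groups was not tested. In replicates 4 and 5 Bcl2l1 was at -0.41, Bcl2 at 0.02 and Mcl1 at 0.12. A negative difference was found for 6 of 9 members in replicate 1, 8 of 9 in replicates 2 and 3 and 4 of 9 in replicates 4 and 5, beside 53.5%, 65.1% and 52.5% of all genes. It was negative in each set for 3 of 9, Bcl2l1, Bad and Pmaip1, beside 24.8%, and positive in each for Bbc3 alone, beside 11.2%. For Pmaip1 this was the sign of the mean, and 2 of its 3 exon-level probe sets were higher in both exon-level sets. With the median of probe sets Bbc3 was at -0.15 in replicate 1.

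The limma fit over all 10 arrays called 0 of 9 members, beside 0.585% of all genes, 0.488% lower and 0.0961% higher. At an unadjusted p under 0.05 it had 2 of 9 lower, Bcl2l1 and Mcl1, beside 12.8% of all genes, and 0 higher, beside 2.11%. The fit to replicates 4 and 5 called 0 of 9, beside 2.71% of all genes, 1.99% lower and 0.721% higher. Bcl2l1 was lower there at an unadjusted p of 0.0137, beside 10.1% of all genes, and 0 of 9 were higher, beside 5.82%. The fit to replicates 2 and 3 called 0 of 9, beside 0% of all genes. Mcl1 and Bcl2l11 were lower there at an unadjusted p under 0.05, beside 8.7% of all genes, and 0 of 9 were higher, beside 0.825%.

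**Figure D3:**
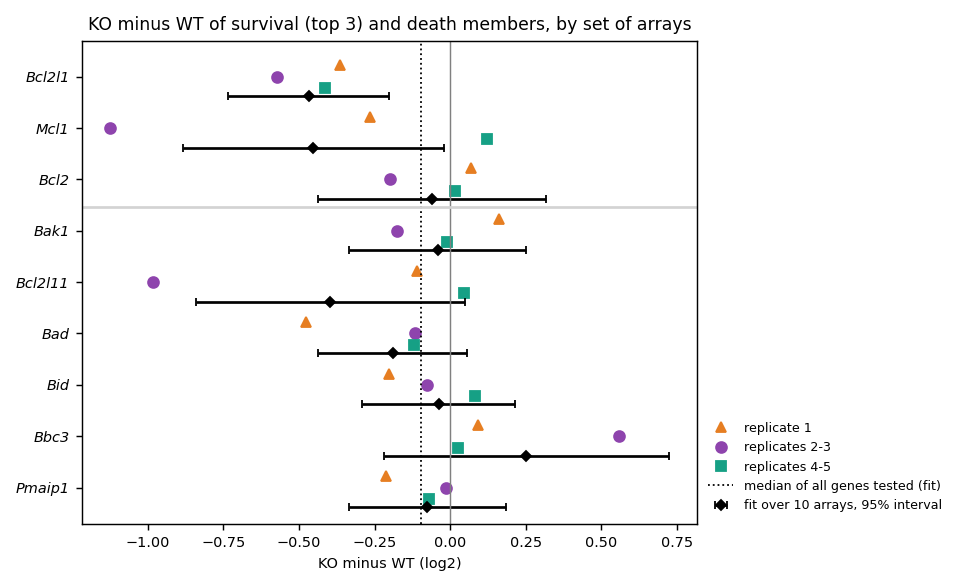
Knockout minus wild-type difference (horizontal axis, log2) of each measured member, survival genes above the grey line and death genes below it. Triangles, circles and squares are replicate 1, replicates 2 and 3, and replicates 4 and 5; diamonds with bars are the fit over all 10 arrays with its 95% interval, and the dotted line is the median of all genes at -0.10. The Bcl2l1 marks of all 3 sets lie between -0.57 and -0.37, while those of Mcl1 and Bcl2l11 are spread over more than 1 log2 unit.

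Other genes of the mitochondrial path were taken from lists of 15 further BCL2 family genes, 19 genes of the apoptosome and mitochondrial steps, and 19 regulators. Of the further family genes 9 were tested, with a median of -0.12 over all arrays, and 0 passed there, beside 0.585% of all genes. Bnip3, a mitochondrial protein of hypoxia and mitophagy, passed in replicates 4 and 5, where it read 7.96 and 7.69 in the knockout arrays, and 8.74 and 8.997 in the wild-type arrays. It fell by 1.04 ± 0.15 there (SE, 2 against 2, limma, adjusted p = 0.0120), 1 of 9 tested beside 1.99% of all genes lower in that set, and differed by -0.82 in replicate 1 and -0.24 in replicates 2 and 3. Over all arrays Bnip3 did not pass (-0.68 ± 0.17, adjusted p = 0.146), and without KO3 it did (adjusted p = 0.00196).

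Of the apoptosome and mitochondrial list 17 genes were tested, with medians of -0.03, -0.58 and -0.23 in the 3 sets. All genes tested had medians of -0.02, -0.22 and -0.01. The fit called 0 of the 17, beside 0.585% of all genes, while 6 were lower at an unadjusted p under 0.05, beside 12.8% of all genes. The member of smallest p was Cycs, cytochrome c, which passes from the mitochondrion to the apoptosome. Cycs read 7.46 in KO1 and 7.67 in WT1, and in replicates 4 and 5 it read 8.84 and 8.95 in the knockout arrays, and 9.39 and 9.28 in the wild-type arrays. Its fitted difference was -0.47 ± 0.13 (SE, 5 against 5, adjusted p = 0.176), and without KO3 it was -0.36 (adjusted p = 0.0389). With the mean of gene-level probe sets in place of the brightest, Cycs was at -0.37 in the limma fit (adjusted p = 0.306). Of the regulators 18 were tested, with medians of -0.04, -0.66 and -0.02 in the 3 sets, beside the same medians of all genes. The fit called 0 of them, beside 0.585% of all genes, while 6 regulators were lower at an unadjusted p under 0.05, beside 12.8%. The smallest p was that of Pim1, a kinase that phosphorylates BAD, with -0.66 ± 0.15 (adjusted p = 0.0951) and differences of -0.50, -1.09 and -0.31 in the sets, and without KO3 it was -0.63 (adjusted p = 0.0324). Beside Bcl2l1, the other reported KLF13 targets were Il4, which fell over all arrays (-0.89 ± 0.17, limma, adjusted p = 0.0470), and Ccl5, which differed by -1.15, -0.38 and 0.50 in the 3 sets (adjusted p = 0.634). The call of Il4 was lost without KO1, KO2, KO4, KO5, WT1, WT2, WT3 or WT4, each taken singly (adjusted p of 0.0706 to 0.181). Markers of T cells moved with the values of replicates 2 and 3, with medians of -0.26, -0.67 and 0.03 in the 3 sets over 10 tested genes, of which Cd3g had the smallest p (-0.89, adjusted p = 0.190). Of B cell, myeloid, NK cell and erythroid markers only 3, 3, 1 and 2 were bright enough to be tested, and 0 passed. Their members of smallest p, Blk, Csf1r, Eomes and Alas2, differed by 0.25, 0.20, 0.02 and 0.24. Of the 3 tested B cell markers 1 was lower, Cd79b at -0.06, and of the 3 tested myeloid markers 1 was lower, Cd68 at -0.13. The part of T cell content or of array brightness in the values of replicates 2 and 3 was not tested.

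**Figure D4:**
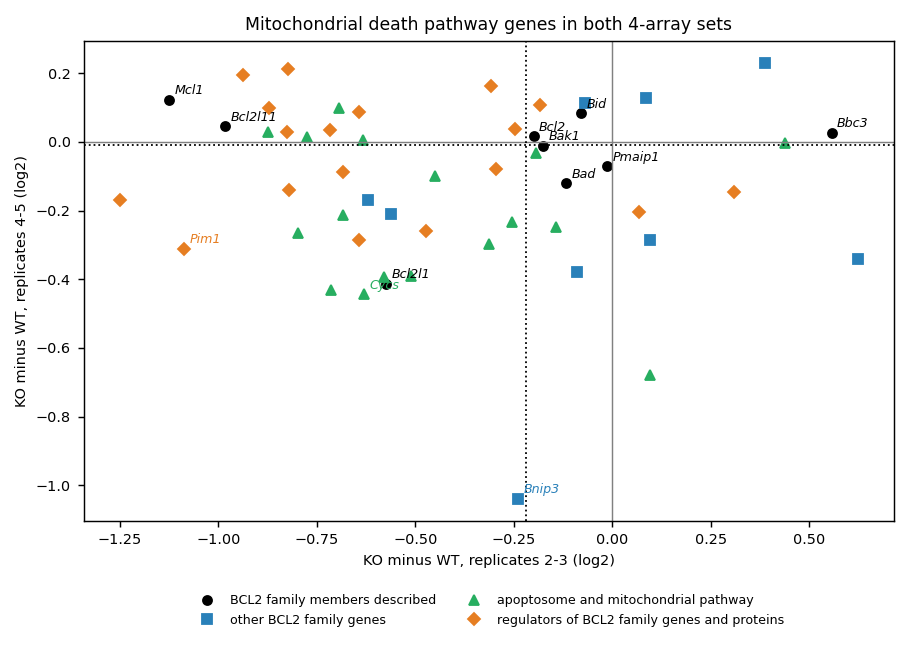
Knockout minus wild-type difference in replicates 2 and 3 (horizontal axis, log2) against that in replicates 4 and 5 (vertical axis, log2) for the tested BCL2 family members (black circles), further family genes (blue squares), apoptosome and mitochondrial genes (green triangles) and regulators (orange diamonds). Dotted lines are the medians of all genes at -0.22 and -0.01. Mcl1 and Bcl2l11 lie far to the left at about the level of 0 in replicates 4 and 5, and Bcl2l1 lies beside Cycs, below 0 on both axes.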

How the data were processed

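The authors deposited log2 signals made with RMA, per the submitters' processing notes, in an exon-level table of 241576 probe sets and a gene-level table of 35556 probe sets, normalized separately. The RMA version and further steps are not named there. GEO's platform annotation gave each probe set its gene, symbols were brought up to date through RefSeq (GRCm38.p6), and only probe sets with a single gene were kept, 212097 and 21797 of them. Exon-level probe sets of a gene were averaged, and the brightest probe set stood for the gene in the gene-level table. Where the median of probe sets is named as a summary, it was taken within each array before subtraction. Genes at or above the 30th percentile in each table were tested.

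Fits used limma 3.58.1 in R 4.3.3 (lmFit and eBayes, 2-sided, Benjamini-Hochberg over all genes tested, threshold 0.05), with replicate 1, replicates 2 and 3, and replicates 4 and 5 as fixed blocks. P-values measure the spread between these samples. Arrays of replicates 2 to 5 were also tested by set and by interaction. The members, lists, blocks and the rule for named genes (members, Klf13, Cd3e, and of each list up to 4 genes that passed or the one of smallest p) were chosen with earlier results of these data known. Fitting code was tested on simulated data. Alternatives were other blocks, normalizations, summaries and filters, and leaving out each array. Combined quantile and median summaries, the crossed block, the block within 4 arrays, the fit without replicates 2 and 3 and the left-out Bcl2 probe set were chosen after seeing the data.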

Additional observations from a re-analysis of the deposited data

How the results depend on the processing

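Over all arrays 0 members passed with each alternative setting, and leaving out single arrays gave 0 to 1, the 1 being Bcl2l1 without KO3. The number of genes called was 73. It was 4 with the table as the only block, 23 with the replicate number as block (replicate block), 32 with the median of exon-level probe sets, 38 with that median and quantile normalization, 254 with replicate 1 and replicates 4 and 5 only (65.4% of them lower, against 83.6% of the 73 and 63.2% of the 38), and 12 to 362 without single arrays. Samples of the same number did not deviate together (correlations of -0.42 in replicates 2 and 3 and -0.24 in replicates 4 and 5), and with the numbers crossed within sets 53 genes were called. The replicate block called 661 genes in place of 339 in replicates 4 and 5, and 85 in place of 0 in replicates 2 and 3, and 0 members. Without single arrays these sets gave 193 to 534 and 1 to 9611 calls. In the second, leaving out a knockout array leaves the spread to WT2 and WT3, which correlated at 0.994, and 0 to 6 members passed.

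Over all arrays Bcl2l1 was at -0.52 to -0.29 under the alternatives, with adjusted p of 0.0331 to 0.9998. Without single arrays it was at -0.78 to -0.36 in replicates 2 and 3 and at -0.52 to -0.30 in replicates 4 and 5. Estimates near 0 changed sign. Over all arrays quantile normalization gave Bcl2 0.0591, Bak1 0.0420, Bid 0.0219 and Pmaip1 0.0115. Bak1 was at 0.0379 with the median of probe sets, at 0.13 with quantile normalization added, and at 0.0471 with replicate 1 and replicates 4 and 5 only, where Bcl2 was at 0.0336. Without single arrays Bcl2 was at -0.17 to 0.0942, Bak1 at -0.0928 to 0.0378 and Bid at -0.105 to 0.0024. In replicates 4 and 5 Bak1 was at 0.0240 after quantile normalization, and Bcl2 at -0.0132 and Bbc3 at -0.0020 after subtraction of array medians. There single arrays moved Bak1 from -0.14 to 0.12, Bbc3 from -0.21 to 0.26, Bcl2 from -0.235 to 0.27, Bcl2l11 from -0.15 to 0.24, Bid from -0.0707 to 0.24 and Pmaip1 from -0.24 to 0.10. In replicates 2 and 3 quantile normalization gave Bcl2 0.0268, Bak1 0.0043, Bad 0.0043, Bid 0.0554 and Pmaip1 0.19, and subtraction of medians gave Bid 0.0223 and Pmaip1 0.0881. There single arrays moved Bak1 from -0.37 to 0.0169, Bbc3 from -0.0461 to 1.16, Bcl2 from -0.63 to 0.23, Bid from -0.16 to 0.0070 and Pmaip1 from -0.0868 to 0.0617, and Bnip3 from -0.54 to 0.0594. The causes were not tested. Klf13 did not pass with the table as the only block (adjusted p = 0.9998) or without KO4, KO5, WT2, WT3 or WT4 (0.0507 to 0.0689). Il4 also lost its call under 8 other settings (adjusted p of 0.0513 to 0.9998). Precision is limited by the 5 arrays per genotype.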
